A study of Drosophila melanogaster with 4 samples.

Results

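The euchromatic part of chromosome arm 2L, the left arm of the second chromosome of Drosophila melanogaster, was described by its ORC2 binding sites. Members were the lines on 2L with a midpoint at or below position 20000000 in FlyBase release 5.1 coordinates, taken from 3 peak lists that were kept apart. They were 234 of 1386 peaks in the list of replicate 1, 273 of 1600 in that of replicate 2, and 104 of 540 regions in the series-level list. The deposited lists came from ChIP-seq of whole embryos of mixed stages from 0 to 24 h, with a crude rabbit polyclonal serum raised against the purified fly ORC2 protein. Both ChIP samples carried the same stage label and antibody, and no genotype, strain or treatment is given in the labels. The study also has 2 samples of input DNA, whose values were not analysed here, so the peaks could not be set against background. Each sample has its own extraction number, but whether embryos were collected separately is not labelled, so the spread between the replicates may be technical. Embryos of all ages and tissues were pooled, and binding in fewer cells cannot be told apart from weaker binding in every cell.

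ORC2 is a subunit of the origin recognition complex, which binds DNA before S phase and loads the helicase that opens the double strand at an origin. In flies the complex has no fixed recognition sequence, and many of its sites lie in open chromatin, often near active promoters. Early embryos replicate from closely spaced origins, and later cells use fewer of them. A ChIP peak marks where the complex was bound, not whether replication started there.

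Every one of the 104 series-level regions on 2L joined overlapping peaks of replicates 1 and 2. The outer ends of those peaks gave the ends of all 104 regions, and averaging the peak scores gave the region score in all 104, to within 1e-05. These regions are called shared regions below, and that they occur in both replicates follows from how the list was made. They covered 29.2 kb and had a median width of 238 bp, with a range from 42 to 1155 bp. The replicate peaks on 2L were narrower, with a median of 148 bp in replicate 1 and 97 bp in replicate 2. No file holds read counts, so the depth behind a peak is unknown. The score is the authors' own value for a peak and has no stated unit, so it is used here to rank peaks within a list.

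The 2L shared regions lay close together more often than those of the other arms. Of the 104 regions, 52 (50%, Wilson 95% interval 40.6 to 59.4) had another shared region within 10 kb. On X the share was 37% (28.2 to 46.8), on 3L it was 27.8% (interval 19.9 to 37.5) and on 3R 18.5% (interval 11.9 to 27.6). The euchromatic limits of these arms were round numbers set here. Against X, 3L and 3R together, where 81 of 289 regions (28.0%) had such a neighbour, 2L was higher by 22.0 percentage points (interval 11.1 to 32.6; Fisher's exact test, two-sided p = 9.64e-05, Benjamini-Hochberg adjusted over 14 arm comparisons p = 0.00135). The difference from X alone was 13 points and did not pass (Fisher's exact p = 0.0676, adjusted 0.189). Regions in one group are not independent, so these p-values are lower limits. Counting each group of regions within 10 kb once, a choice made after the values were seen, 20 of 72 groups on 2L (27.8%) held more than 1 region, against 32 of 240 (13.3%) on the other arms (Fisher's exact p = 0.00637, adjusted 0.0892).

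The replicate lists showed the same direction with a smaller difference. They hold the peaks from which the shared regions were made, so this direction is not independent support. In replicate 1, 127 of 234 peaks on 2L (54.3%) had such a neighbour within 10 kb, against 46.0% on the other arms (difference 8.32 points, interval 1.02 to 15.5; Fisher's exact p = 0.0303, adjusted 0.106). For replicate 2 they were 59.3% and 51.2% (difference 8.12 points, interval 1.32 to 14.7; Fisher's exact p = 0.0215, adjusted 0.100). Neither passed after adjustment.

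Very short gaps were common on 2L. Of the 103 gaps between neighbouring shared regions, 16 were under 1 kb (15.5%, Wilson interval 9.79 to 23.8), against 17 of 286 gaps on X, 3L and 3R (5.94%, interval 3.74 to 9.31). Joining regions less than 1 kb apart left 88 on 2L, and 31.8% of them had a neighbour within 10 kb, against 21.0% on the other arms. That difference of 10.9 points did not pass after adjustment (Fisher's exact p = 0.0434, adjusted 0.131). Whether a short gap separates distinct binding sites or pieces of one wide site was not tested.

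**Figure D1:**
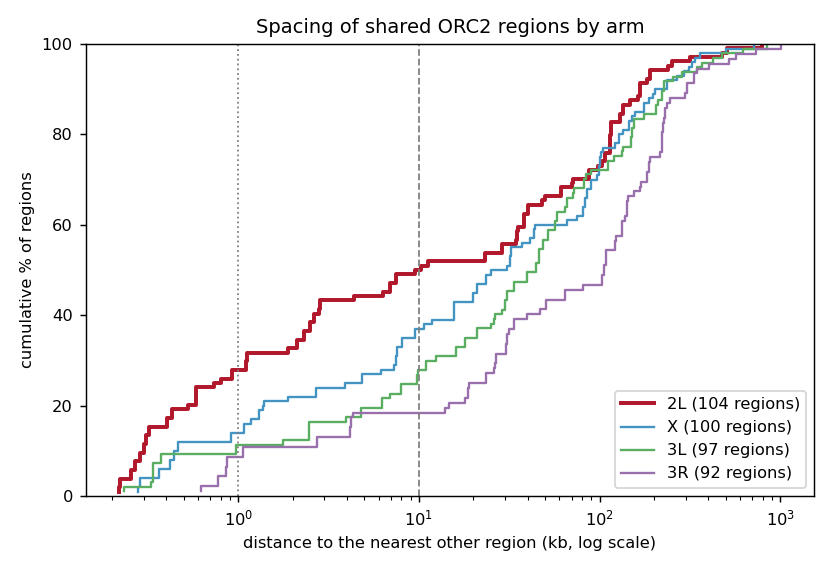
Cumulative share of shared ORC2 regions (percent, y axis) by the distance to the nearest other region of the same arm (kb, log scale, x axis), with 1 line per arm and vertical lines at 1 kb and 10 kb. At 10 kb the line of 2L stands at 50%, above X at 37%, 3L at 27.8% and 3R at 18.5%.

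On 2L, 8 groups held 3 or more shared regions, joined by gaps of at most 10 kb. Together they contained 28 of the 104 regions (26.9%), compared with 19 regions in 5 such groups on X, 17 in 5 on 3L and 3 in 1 on 3R. The largest lay at 12004064 to 12012588, where 6 regions covered 48.2% of 8.53 kb. It held 6 peaks of replicate 1 and 8 of replicate 2. Of the 5 widest regions of the arm, 4 belonged to it, at 12011434 to 12012588 (1155 bp), 12010227 to 12011165 (939 bp), 12004064 to 12004917 (854 bp) and 12006980 to 12007763 (784 bp). The scores of these 6 regions were 2.66, 2.83, 2.10, 2.63, 2.51 and 2.39 in order of position, so all but 1 lay above the 2L median of 2.27, and all lay far below the highest of the arm. This group covered more bases than any of the others, 4105 bp, and its median score of 2.57 was the second highest of the 8.

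The widest region, at 12011434 to 12012588, was called as 1 peak of 1148 bp in replicate 1 and as 3 peaks in replicate 2, of 172, 193 and 278 bp. It was the only shared region on 2L not made of 1 peak from each replicate. The replicate 1 score was 1.80, lower than that of most peaks in its list, and the replicate 2 scores were 2.64, 3.14 and 1.99.

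The group at 2193495 to 2203583 held 4 regions in 10.1 kb. Its first region, at 2193495 to 2193859, had the second-highest mean score of the arm, with 3.21 in replicate 1 and 5.20 in replicate 2. The next, at 2196488 to 2197344, was 857 bp wide and scored 2.24 and 2.21. The other two, at 2200271 to 2200502 and 2203356 to 2203583, scored 2.27 and 1.98, and 2.00 and 3.53. High and ordinary scores thus stood side by side within this group, and it also held 3 peaks of replicate 2 that met none of replicate 1, as did the group at 16280046.

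The remaining groups held 3 regions each. They lay at 2752249 to 2755610, 6956924 to 6967700, 11806877 to 11808989, 16280046 to 16287868, 16526085 to 16534500 and 19571932 to 19575704. Their spans ran from 2.11 kb for the group at 11806877 to 10.8 kb for the one at 6956924. The group at 16280046 had the highest median score of all 8, 2.76. In its region at 16284650 to 16285067 the replicates differed widely, with 1.60 in replicate 1 and 3.91 in replicate 2. The group at 19571932 was the last before the limit of the arm's euchromatic part, and its region at 19571932 to 19572132 scored 2.83 and 3.21.

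**Figure D2:**
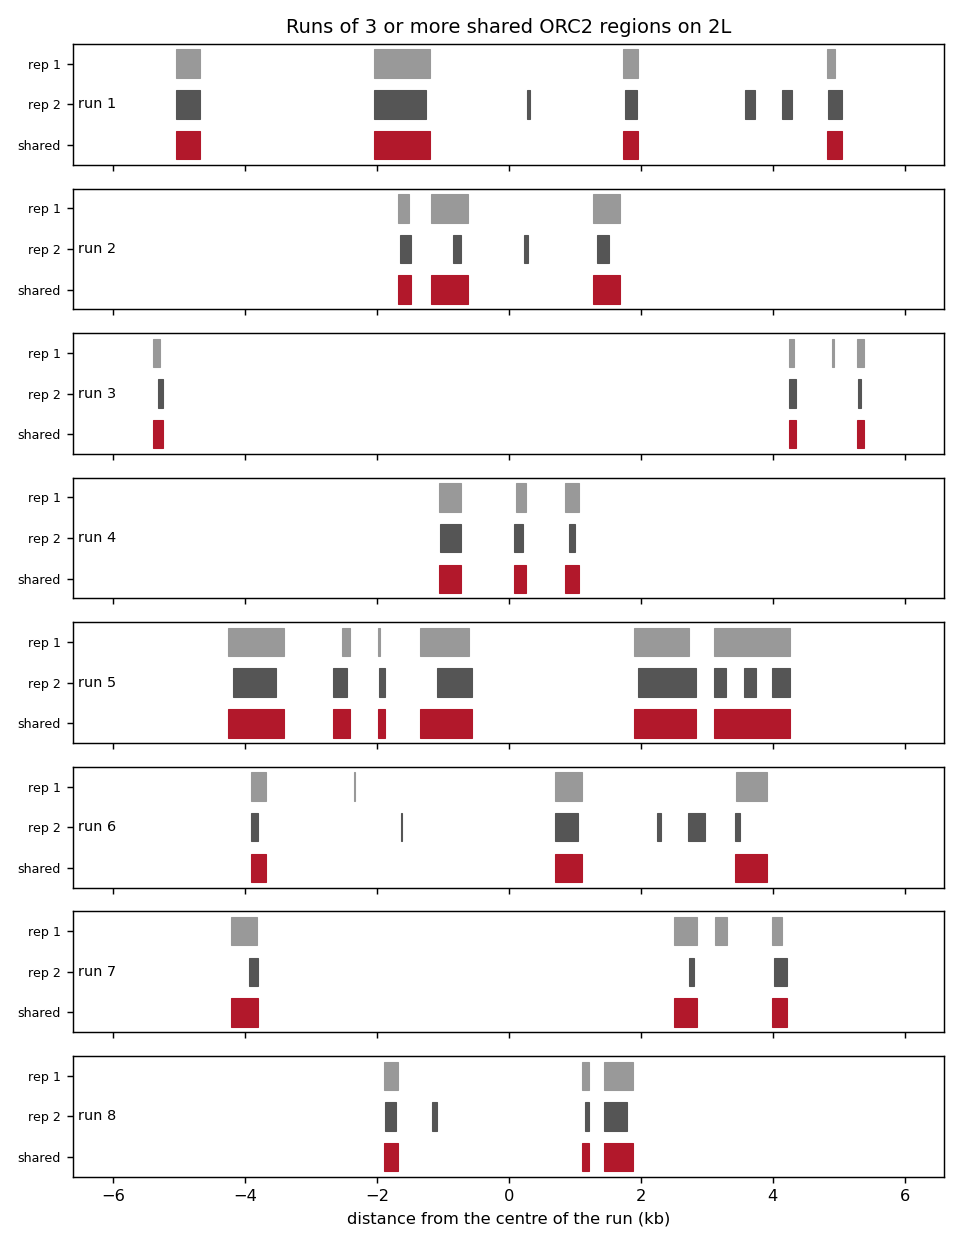
Peaks of replicate 1, peaks of replicate 2 and shared regions (rows) in the 8 groups of 3 or more shared regions on 2L, numbered by position, against distance from the centre of each group (kb). Group 5 holds 6 shared regions that cover 48.2% of 8.53 kb, and groups 1 and 6 each have 3 replicate 2 peaks with no partner.

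ORC2 peaks were unevenly spread along 2L on a larger scale. In 20 bins of 1 Mb, the count of shared regions ran from 0 to 12 with a median of 5. The bin from 12000001 to 13000000 was highest, with 12 shared regions, 20 peaks of replicate 1 and 28 of replicate 2. The next 3 bins held 11 regions each and began at 2000001, 6000001 and 16000001. The bin from 17000001 to 18000000 was almost empty in all lists, with 2 peaks in replicate 1, 0 in replicate 2 and 0 shared regions. The bin from 10000001 to 11000000 also had 0 shared regions, although it held 8 peaks of replicate 1 and 3 of replicate 2.

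The replicates followed a similar profile. Across the 20 bins, peak counts of replicates 1 and 2 had a Pearson r of 0.66 and a Spearman rho of 0.62. Without the bin from 17000001, the value over 19 bins was 0.56 for both. These describe bins of 1 arm, which share their libraries and any background that follows position.

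The longest stretch without a shared region ran from 9759120 to 11445529, over 1686 kb. It held 12 peaks of replicate 1 (7.12 per Mb) and 9 of replicate 2 (5.34 per Mb), compared with 11.7 and 13.7 per Mb over the euchromatic arm. The next, from 16716705 to 18151351, spanned 1435 kb and had 3 peaks in each replicate (2.09 per Mb). Both stretches were chosen for holding no shared region, so all of their peaks lacked a partner, whereas the arm values count all peaks. Unmatched peaks numbered 130 in replicate 1 and 167 in replicate 2 over the 20 Mb of the euchromatic arm. The stretch from 16716705 was nearly bare of calls in both lists.

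The 10 highest-scoring shared regions of 2L were spread from position 2130230 to 19572132, and 5 of them had another shared region within 10 kb, the same share as over all regions of the arm. Of the 10, 3 belonged to a group of 3 or more. The highest, at 3000755 to 3000882, scored 4.30 in replicate 1 and 4.14 in replicate 2 (mean 4.22 ± 0.11, SD, n = 2), and was 128 bp wide. Its scores stood at percentile 98.8 of the replicate 1 list and 95 of the replicate 2 list, and the centres of its peaks lay 2 bp apart. A percentile here is the rank of a score in its whole list, as a percent of the list, with tied scores given their mean rank. The nearest other shared region was 114 kb away. Means over the replicates only describe a region, because the scores of the lists are on scales that may differ.

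The region at 2193495 to 2193859, the second by mean score, had nearly the same extent in both samples, with peaks of 364 and 360 bp and 98.4% of its bases in both. The region at 13892397 to 13892438 followed and was the narrowest on the arm, at 42 bp. Its peaks of 42 and 21 bp scored 3.74 and 3.40, and its nearest neighbour was 129 kb off. At 3772960 to 3773162 the scores were 2.33 and 4.67, the widest difference of raw scores between the replicates on the arm. This region stood alone, 510 kb from the next shared region. Its scores stood at percentile 60.8 of replicate 1 and 97.8 of replicate 2. By percentile the region at 12436337 to 12436477 differed more, with 98.2 and 5.25.

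Of the rest of the 10 highest, those at 2130230 to 2130497 (2.66 and 3.96), 14995554 to 14995921 (2.02 and 4.09) and 16287390 to 16287868 (2.22 and 3.73) had raw scores higher in replicate 2 by more than 1. Raw scores at 6921215 to 6921359 (2.82 and 3.40) and 19571932 to 19572132 (2.83 and 3.21) were also higher there. By percentile the region at 19571932 was not, with 85.4 in replicate 1 and 83.7 in replicate 2. The region at 18947438 to 18947827 was higher in replicate 1, with 3.51 against 2.92. Of these 10 regions, 5 were narrower than the 2L median, and over all 104 regions score and width had a Spearman rho of -0.22. For shared regions of X, 3L and 3R this rho was 0.05, -0.01 and -0.10. Among replicate 1 peaks it was -0.45 on 2L and X, -0.48 on 3L and -0.46 on 3R. Among replicate 2 peaks it was -0.13 on 2L, -0.06 on X, 0.02 on 3L and -0.15 on 3R.

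Below these, some regions rested on 1 sample by score. At 12436337 to 12436477 replicate 1 scored 3.96 and replicate 2 scored 1.76, which stood at percentile 5.25 of the replicate 2 list. The reverse held at 16284650 to 16285067, where the replicate 1 score of 1.60 stood at percentile 3.25 of its list. The closest raw scores among regions above the 2L median were at 7056237 to 7056475, with 2.379 and 2.380. By percentile they were less close, with 63.7 in replicate 1 and 45.3 in replicate 2. The peaks of this region were unlike in extent, 239 bp in replicate 1 and 20 bp in replicate 2. The lowest-scoring shared region lay at 14490327 to 14490878, was 552 bp wide and scored 1.52 and 1.73.

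Scores of the replicates were only weakly related across shared regions. Over the 103 regions made of 1 peak from each replicate, the Spearman rho was 0.18 and the Pearson r 0.27. The replicate 2 peak had the higher raw score in 70 of these regions, but the higher percentile of its list in only 57. Both peaks scored above their list's median in 25 regions, neither in 36, replicate 1 alone in 22 and replicate 2 alone in 20. Both were in the upper 25% of their lists in 10. Widths were more alike than scores, with a rho of 0.63 on 2L, against 0.33 on X over 98 regions, 0.50 on 3L over 96 and 0.40 on 3R over 92. The rho of scores was low on those arms too, with 0.17 on X, 0.33 on 3L and 0.25 on 3R. These values describe regions of the same libraries, and differences between arms were not tested.

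**Figure D3:**
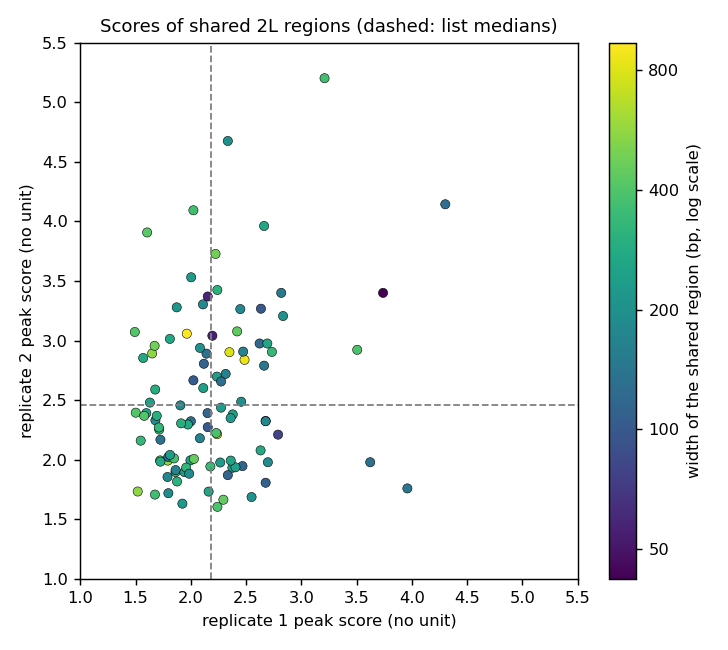
Score of the replicate 1 peak (x axis) against that of the replicate 2 peak (y axis), both without a unit, for the 103 shared 2L regions made of 1 peak from each sample, coloured by width of the region in bp on a log scale. Dashed lines mark the medians of the whole lists, 2.19 and 2.46, and 25 regions lie above both.

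The peaks of a shared region overlap by construction, which limits how far apart their centres can be, so the offsets are a description. The peaks had median widths of 225 bp in replicate 1 and 138 bp in replicate 2. Centres lay within 50 bp of each other in 72 of 103 regions and within 100 bp in 95, with a median offset of 31 bp. The largest offset, 209 bp, was in the region at 16287390 to 16287868, whose peaks were 472 and 69 bp wide. The replicate 1 peak was the wider in 81 regions. The replicate 2 peak lay wholly inside it in 51, the reverse held in 8, and the peaks were staggered in 44. No pair had the same ends.

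Replicate overlap on 2L was not far from that of the whole lists. Of the replicate 1 peaks on 2L, 104 of 234 (44.4%, Wilson interval 38.2 to 50.8) met a replicate 2 peak by at least 1 bp, where the share over the whole list was 39.0%. In replicate 2, 106 of 273 (38.8%, interval 33.2 to 44.7) met a replicate 1 peak, against 34.1% of the whole list. Compared with X, 3L and 3R together, 2L was higher by 7.35 points in replicate 1 (interval 0.229 to 14.6; Fisher's exact p = 0.0468, adjusted 0.131). It was higher by 4.76 points in replicate 2 (interval -1.70 to 11.4; Fisher's exact p = 0.167, adjusted 0.334). Neither difference passed after adjustment. Among 2L, X, 3L and 3R, the share was lowest on 3R in both lists, 34.3% and 29.8%.

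Matched peaks on 2L were wider than unmatched ones by their medians, a description without a test. In replicate 1 the median width was 227 bp for matched and 126 bp for unmatched peaks. In replicate 2 it was 146 bp and 61 bp. Of the narrowest 25% of replicate 1, set on the whole list at up to 90 bp, 10 of 47 2L peaks were matched (21.3%, interval 12.0 to 34.9). Of the widest 25%, above 231 bp, 49 of 68 were (72.1%, interval 60.4 to 81.3). The replicate 2 shares were 10.8% up to 49 bp and 75% above 151 bp. Wide peaks were matched more often on X, 3L and 3R too, where the shares in the same classes were 9.85% and 65.8% in replicate 1 and 13.5% and 66.8% in replicate 2. By score the 2L shares had no steady order, in classes of 50 to 73 peaks in replicate 1. There the shares from the lowest-scoring to the highest-scoring 25% were 57.6%, 31.5%, 51.9% and 40%, while on X, 3L and 3R they fell from class to class, with 44.8%, 42.6%, 35.6% and 26.8%. In replicate 2 they were 48%, 34.3%, 30.2% and 41.2% on 2L, and 36.5%, 32.1%, 31.3% and 36.3% on the other arms. The difference between 2L and the other arms in these classes was not tested.

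**Figure D4:**
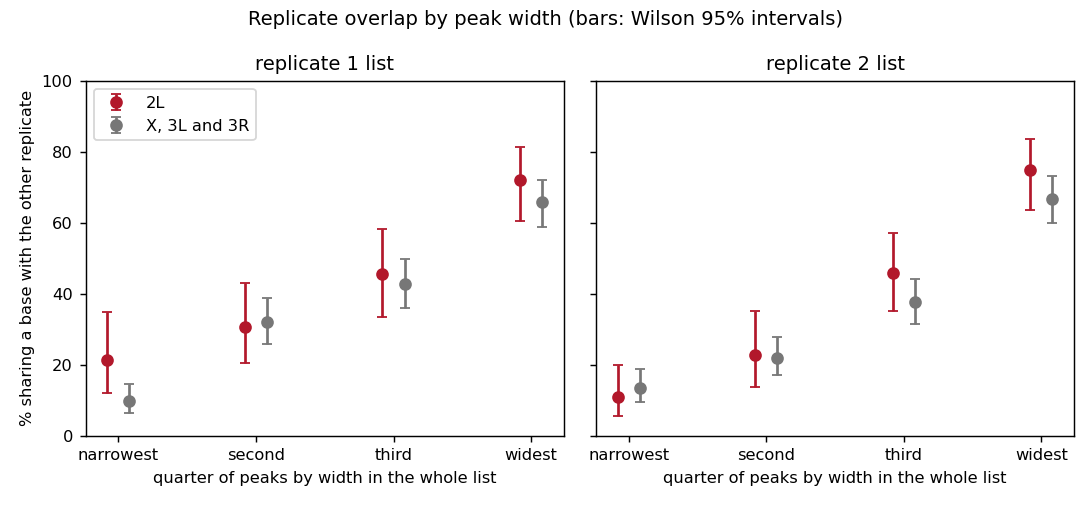
Share of peaks that overlap a peak of the other replicate (percent, y axis) by width, in 4 equal classes set on the whole list (x axis), for 2L and for X, 3L and 3R together, with Wilson 95% intervals. On 2L the share climbs from 21.3% to 72.1% in replicate 1 and from 10.8% to 75% in replicate 2, and on the other arms from 9.85% to 65.8% and from 13.5% to 66.8%.

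Peaks without a partner were partly close to one. Of the 130 unmatched replicate 1 peaks on 2L, 34 (26.2%, interval 19.4 to 34.3) lay within 1 kb of a replicate 2 peak and 14 had none within 100 kb. Of the 167 unmatched replicate 2 peaks, 34 (20.4%, interval 15.0 to 27.1) were as near to a replicate 1 peak and 15 lay beyond 100 kb. With peaks within 1 kb counted as matched, replicate 1 shares were 59.0% on 2L and 49.7% on X, 3L and 3R. For replicate 2 they were 51.3% and 46.4%. Neither difference passed Fisher's exact test after adjustment (adjusted p = 0.0644 and 0.330). Peaks on 2L narrower than the sequencing read of 36 nt numbered 17 in replicate 1 (7.26%), of which 2 were matched. In replicate 2 there were 56 (20.5%), of which 6 were matched. Shares of such narrow peaks on other arms were not computed. None of the shared regions was that narrow.

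Some of the highest single scores on 2L belonged to unmatched peaks. The 3 highest replicate 2 scores of the arm were all unmatched, at 3786959 to 3787026 (6.53, 68 bp), 9207437 to 9207565 (5.99, 129 bp) and 13840111 to 13840122 (5.86, 12 bp). The nearest replicate 1 peaks were 13.8, 1.93 and 38.7 kb away. In replicate 1 the highest unmatched scores were at 12064047 to 12064050 (3.98, 4 bp), 5978828 to 5978848 (3.91, 21 bp) and 3804907 to 3804938 (3.82, 32 bp). Replicate 2 had peaks 1.16, 1.26 and 0.709 kb from these. The replicate 1 peaks of this set were all narrower than the sequencing read, and the replicate 2 peak at 13840111 was too.

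The number of ORC2 sites per Mb on 2L did not differ detectably from that of X, 3L and 3R together. Replicate 1 had 11.7 peaks per Mb on 2L (exact Poisson 95% interval 10.2 to 13.3), with 12.6 on X, 12.3 on 3L and 10.8 on 3R. Replicate 2 had 13.7 (12.1 to 15.4), with 14.1, 12.7 and 12.4. Shared regions numbered 5.2 per Mb on 2L (4.25 to 6.30), with 5 on X, 4.62 on 3L and 3.70 on 3R. The ratio of 2L to the other arms was 0.989 in replicate 1 (95% interval 0.851 to 1.15), 1.05 in replicate 2 (0.912 to 1.20) and 1.18 for shared regions (0.938 to 1.49). None passed the exact binomial test, two-sided, with lengths as expectation (p = 0.911, 0.504 and 0.136; adjusted 0.981, 0.588 and 0.318). When groups within 10 kb counted once, the ratio for shared regions was 0.988. The 72 groups gave 3.6 per Mb on 2L, with 3.85 on X, 3.81 on 3L and 3.34 on 3R.

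Against X, 3L and 3R together, scores on 2L did not differ past the test in any list. In replicate 1, 102 of 234 peaks (43.6%) scored above the median of the whole list, against 53.0% on X, 3L and 3R together. The difference of -9.43 points (interval -16.5 to -2.12) did not pass after adjustment (Fisher's exact p = 0.0138, adjusted 0.0964). For replicate 2 the values were 48.0% and 51.0% (Fisher's exact p = 0.405, adjusted 0.515), and among shared regions 48.1% and 55.0% (p = 0.252, adjusted 0.410). X was the highest of these 4 arms in all 3 lists, with 59.1%, 59.1% and 66%. On 3R the shares in replicate 2 and among shared regions, 44.7% and 41.3%, were below those of 2L. Against X alone, a comparison made after seeing the values, the replicate 1 difference was -15.5 points (Fisher's exact p = 0.000764, adjusted 0.00535). The same comparison did not pass in replicate 2 (-11.1 points, Fisher's exact p = 0.0105, adjusted 0.0643) or among shared regions (-17.9 points, Fisher's exact p = 0.0112, adjusted 0.0643). Adjusted values against X alone do not allow for the choice of X or the number of alternatives run. Shares of peaks wider than the list median did not differ past the test in any list, with differences of 4.38, 3.12 and -0.0965 points (Fisher's exact p = 0.264, 0.404 and 1).

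**Figure D5:**
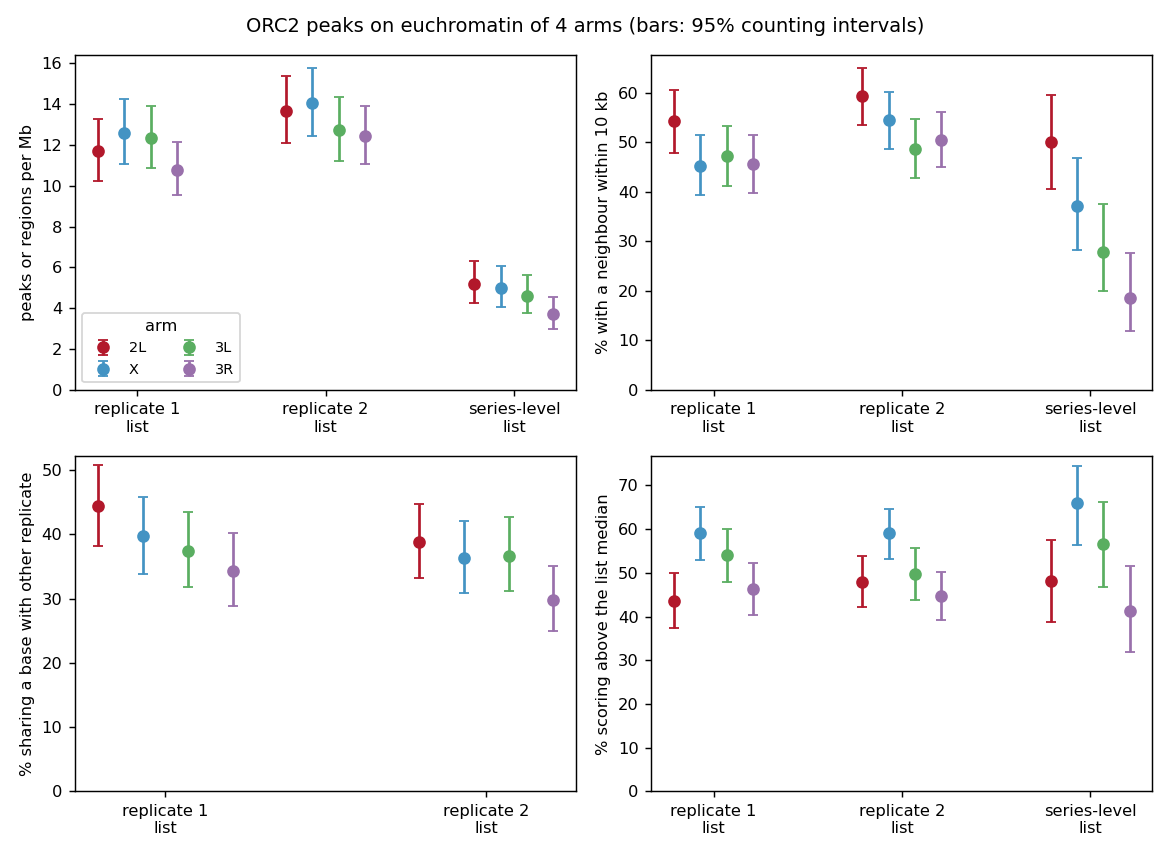
Peaks or regions per Mb, share with a neighbour within 10 kb, share overlapping the other replicate and share scoring above the median of the whole list (y axes), for 2L, X, 3L and 3R in each list (x axes). Bars are exact Poisson intervals for densities and Wilson intervals for shares, both 95%, and 2L stands highest for neighbours in all 3 lists.

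The limit at 20000000 fell in a sparse stretch. The last shared region inside it was at 19575256 to 19575704, with scores of 2.03 and 2.01, and the first outside was at 20821683 to 20821969, with a mean of 2.46. In replicate 1 the peaks next to the limit were at 19935212 to 19935375 and 20638594 to 20638660, with scores of 1.99 and 2.13. In replicate 2 they were at 19576521 to 19576649 and 20083009 to 20083015, with 2.23 and 2.73. Beyond the limit, towards the centromere, 2L held another 16 peaks of replicate 1, 18 of replicate 2 and 8 shared regions.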

How the data were processed

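Per the labels' protocols, embryos were cross-linked, chromatin was immunoprecipitated, and fragments of 150 to 200 bp were selected and read from one end on an Illumina Genome Analyzer II. Per the file headers, positions are on FlyBase release 5.1, and each line names PeakSeq, a program that compares ChIP reads with a control. The authors deposited 1 score per peak without a unit. Aligner, thresholds and control are, like the depth, not given in the sources used here. Peaks were called per sample.

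Gaps between peaks were measured edge to edge. Euchromatic limits were 20000000 on 2L and X (at or below), 21000000 on 3L (at or below) and 3000000 on 3R (at or above). Those of X, 3L and 3R were round numbers chosen for the comparison, without a source. Lengths ran from the arm end to the limit, and on 3R from the limit to the last peak of any list. Arms were compared within a list, by an exact binomial test of counts or Fisher's exact test of shares, both two-sided, with Benjamini-Hochberg adjustment over 14 tests. For each alternative, its p replaced the main p within these 14 tests. Adjusted values of alternatives therefore do not allow for the number of alternatives run. Differences of shares carry Newcombe intervals. All intervals cover counting error only, and all tests treat peaks as independent.

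Regions named were the 10 highest and 5 widest shared regions, the 5 largest score differences and the 5 smallest among regions above the 2L median score, the 3 highest unmatched peaks of each replicate, groups of 3 or more, the fullest and emptiest bins, and peaks next to the limit. The members, limits, tests and regions were chosen with earlier results of these data known. The empty stretches and the lowest-scoring region were named after their values were seen. The sequence and annotation of release 5.1 were not used here, so no genes are named and no bases are shown. The gene table at hand describes Release 6, and positions were not converted. Computation used SciPy 1.17.1, NumPy 2.4.6, pandas 2.3.3 and matplotlib 3.10.9 in Python 3.11.15. The tests of matched and score shares were tried on simulated lists. Gaps, grouping and joining were checked on a small made-up list. The density and width tests were not checked in this way, nor was the neighbour test on clustered peaks.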

Additional observations from a re-analysis of the deposited data

How the results depend on the processing

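The greater crowding of shared regions on 2L kept its direction under every alternative run. These alternatives reuse the same regions or the replicate peaks behind them, so a common direction was partly built in. The difference of 22.0 points no longer passed Fisher's exact test after adjustment with regions within 1 kb joined (10.9 points), with regions above the median score only (8.33, adjusted p = 0.449), against X alone (13), per group of regions (14.4), or in either replicate list by itself (without replicate 1 or 2, 8.12 to 8.32 points). It passed with distances of 5 and 20 kb, on whole arms, with peaks of at least 50 bp, and without the longest group of each arm. In the replicate 1 list the neighbour difference passed at 5 kb (10.1 points, Fisher's exact test, adjusted p = 0.0386), and the score difference passed against X alone (-15.5 points). Neither adjusted value allows for the number of alternatives run.

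Ratios of density crossed 1 without passing the test. In replicate 1 (0.989) this happened with peaks of at least 50 bp (1.01) and against 3R alone (1.08). In replicate 2 (1.05) it happened with peaks joined within 1 kb (0.964) or 10 kb (0.967), scores above the median (0.987) and X alone (0.972). For shared regions (1.18) it happened with joining within 10 kb (0.988), and the replicate lists alone gave 0.989 to 1.05. Their ratio was 1.04 against X alone, 1.13 against 3L alone and 1.40 against 3R alone. The last did not pass after adjustment (exact binomial p = 0.0178, adjusted 0.0752). Score differences changed sign against 3R alone, to 3.33 points in replicate 2 and 6.77 for shared regions. Width differences changed sign against X alone in replicate 1 (-0.153). Among shared regions they did so on whole arms (3.08), with at least 50 bp (0.694), joined within 1 kb (1.47), against X (1.04) or 3L (1.62), and in the replicate lists (3.12 to 4.38). Comparisons with single arms other than for density, the joining within 10 kb, the count per group and the omission of the longest groups were chosen after seeing the data. The cause of these changes was not tested. Unknown depth limits all counts, since a missed peak cannot be told apart from an unbound site.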
